A study of Homo sapiens with 6 samples.

Results

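Phase II enzymes of the UGT, SULT and GST families are described here in HepG2, an established hepatoma line of human origin in which many hepatocyte genes are still active. Members were all protein-coding genes of the count table whose symbol begins with UGT1A, UGT2A, UGT3A or UGT2B, with SULT and a digit, or with GST, a class letter of A, K, M, O, P, T or Z, and a digit. This gave 50 of the 52408 genes in the table, of which 9 were UGT1A genes, 12 were UGT2 or UGT3 genes, 13 were SULT genes and 16 were GST genes. Treated cells received ellagic acid (EA), a polyphenol of fruits and nuts, at 50 µM in DMSO over 24 h, and control cells received the same volume of DMSO without EA. Each group had 3 libraries of bulk RNA, and both groups shared one medium with serum, penicillin and streptomycin. The labels do not say whether the 3 libraries of a group are separate cultures. The p-values therefore reflect the scatter among these libraries alone, which may be technical.

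Phase II enzymes attach a polar group to a drug, hormone, bile pigment or dietary compound so that it can be excreted in bile or urine. UDP-glucuronosyltransferases (UGTs) sit in the endoplasmic reticulum and transfer glucuronic acid, cytosolic sulfotransferases (SULTs) transfer sulfate, and glutathione S-transferases (GSTs) couple glutathione to reactive molecules. Liver is a main site of all of these reactions, and polyphenols such as EA and the products that gut bacteria make from it circulate largely as glucuronides and sulfates.

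Levels of most measurable members were lower in EA cells. With a filter on low counts 25 of the 50 members had enough reads to be tested, and 22 of these fell, 2 rose and 1 was not called by edgeR's quasi-likelihood test at a Benjamini-Hochberg adjusted p of 0.05 over all 15648 genes tested. Across all genes tested 81.0% were called, 40.5% lower and 40.5% higher with EA, so a call alone does not set these genes apart. A fall of at least 2-fold was called in 19 members and in 21.5% of all genes, one of at least 8-fold in 9 members and 2.54% of all genes, and a rise of at least 2-fold in 1 member, GSTO2, and 23.4% of all genes. The median log2 fold change (EA over DMSO) was -2.59 over the tested members, also with a gene at 0 reads placed at its bound, and 0.0044 over all genes tested. Of the 25 tested members, 7 (GSTA1, GSTA2, GSTM2, SULT1E1, UGT1A1, UGT1A6 and UGT2B4) passed the filter through their DMSO libraries alone, as not every EA library reached it. The filter thus favoured a lower value with EA in these genes. Their number is part of the counts and median just given. Among the 18 that passed in both groups, 15 fell, 2 rose and 1 was not called, 12 fell at least 2-fold and 4 at least 8-fold, and the median log2 fold change was -1.41. Among all 12928 genes that passed in both groups 43.7% fell, 21.1% at least 2-fold and 1.46% at least 8-fold, with a median of -0.09. EA and DMSO libraries did not overlap in 24 of the 25 tested members, against 82.9% of all genes tested. These 24 include the 7 that passed through DMSO alone, so the filter set part of this count.

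**Figure D1:**
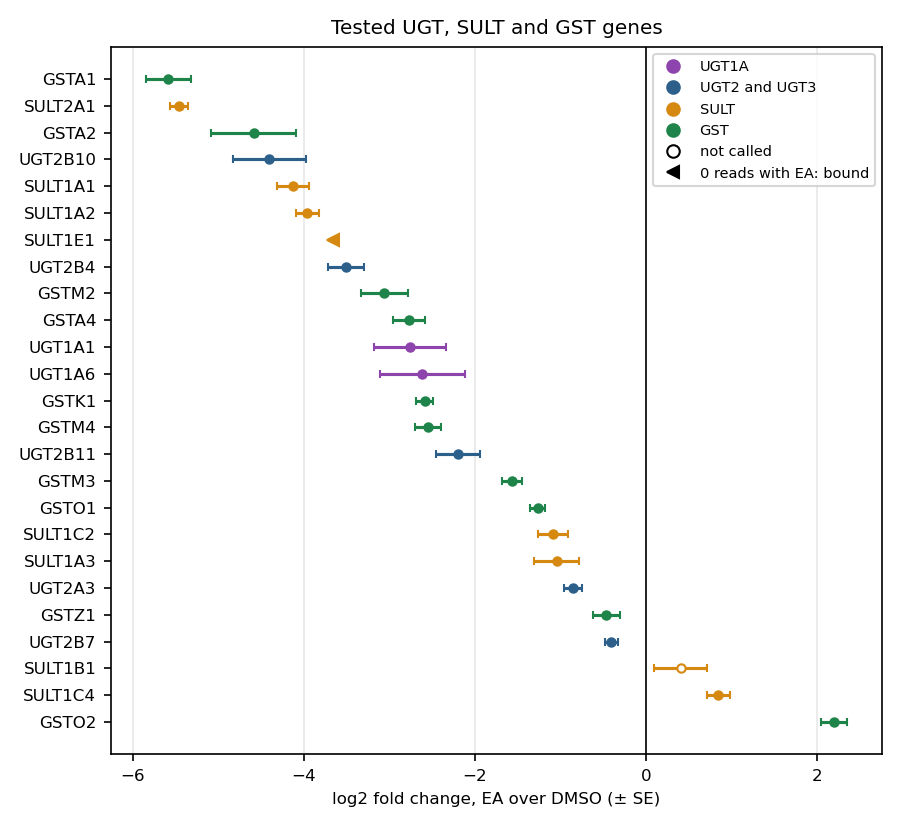
Log2 fold change (EA over DMSO, horizontal axis, ± SE) of the 25 tested members, ordered by size and coloured by family, with an open point for the gene not called and a triangle for SULT1E1, which had 0 reads with EA and is placed at its bound. Points run from -5.58 for GSTA1 to 2.20 for GSTO2, and 22 lie left of 0.

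Libraries held 15738089 to 19202292 reads assigned to genes with EA and 22987425 to 25973621 with DMSO, so that 0 reads in 1 library allows up to 0.159 to 0.187 CPM with EA and 0.117 to 0.130 CPM with DMSO (3 reads, counting error only). CPM are counts scaled to a common library size after TMM scaling, and are not divided by gene length. EA replicate 3 had a score of -33.78 on the second principal component (2.49% of the variance), while EA replicates 1 and 2 had 18.54 and 14.19. Results that turn on it are given without it below. Hepatocyte markers were read in every library, ALB and AFP among them. The 8 markers summed to 13160 to 13672 CPM with EA, against 48959 to 51819 CPM with DMSO. Most of the DMSO sum came from APOB, at a mean of 29447 CPM with DMSO and 3080 CPM with EA. Of the 8 markers 7 fell and 1 rose, where 40.5% of all genes tested fell and 40.5% rose. Cholangiocyte markers summed to 1461 to 1644 CPM with EA, against 653 to 712 CPM with DMSO, almost all of it from KRT19, which rose, and SOX9, which fell, with KRT7 at 16 reads with EA and 2 with DMSO. Stellate or fibroblast markers summed to 56.6 to 62.1 CPM with EA, against 47.1 to 48.2 CPM with DMSO, with ACTA2 higher, COL1A1 and PDGFRB lower and COL1A2 at 0 reads. Endothelial markers stood at 3.07 to 3.92 CPM with EA, against 2.32 to 2.44 CPM with DMSO (VWF higher, CDH5 lower, KDR at 1 read). PECAM1 was also listed but was not matched in the count table, so it is not in this sum. The leukocyte markers summed to 0.0622 to 0.476 CPM with EA, against 1.44 to 1.91 CPM with DMSO, all of it from CD14, with PTPRC, CD68 and CD3E at 0. COL1A1, CDH5 and CD14 passed the filter through their DMSO libraries alone and so had to be lower with EA. The part of all these cell type markers in the results below was not tested. In bulk RNA, fewer cells that express a gene and less RNA of it per cell cannot be told apart.

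Summed over all members, phase II transcripts took 199, 209 and 230 CPM in the EA libraries, against 827, 786 and 788 CPM in the DMSO libraries. SULT genes together stood at 25.8 ± 2.22 CPM with EA and 272 ± 6.19 CPM with DMSO (SD, n = 3 each), which is 9.49% of the DMSO level. GST genes together stood at 36.7%, UGT2 and UGT3 genes at 33.9% and UGT1A genes at 17.5% of their DMSO level. In each of the 4 families all EA libraries lay below all DMSO libraries. Most of the SULT sum with DMSO came from SULT2A1 and SULT1A1, at means of 127 and 105 CPM. GSTO1, at a mean of 147 CPM with DMSO, was the largest part of the GST sum. The family sums mix genes of different length and are descriptions without a test.

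**Figure D2:**
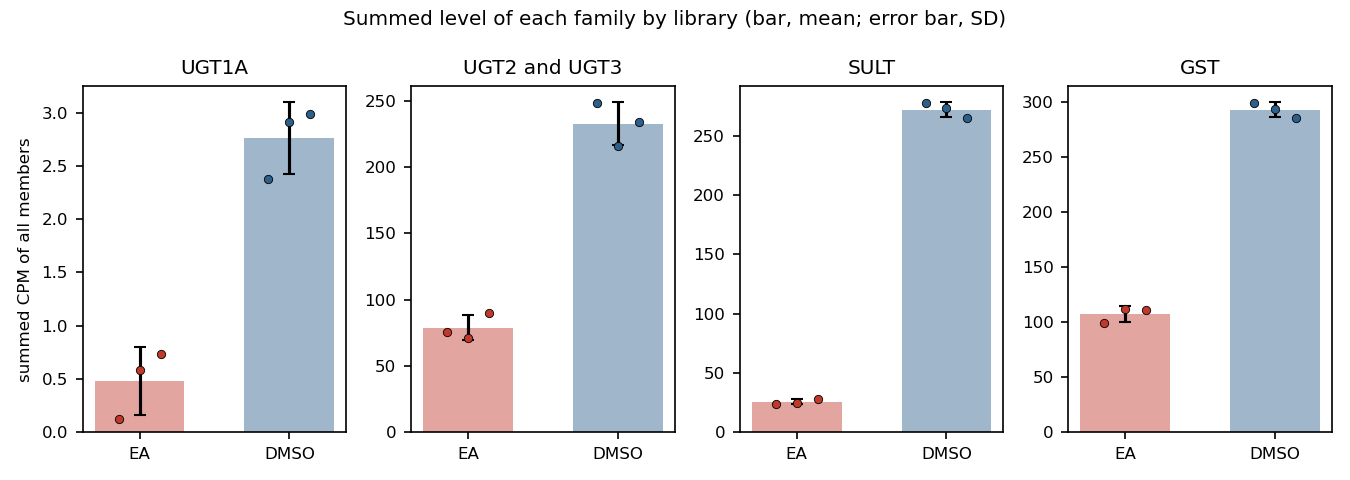
Summed CPM of all members of each family (vertical axes, each from 0) in EA and DMSO cells, with 1 point per library, bars for the mean and error bars for the SD of 3 libraries. In all 4 panels the EA points lie below the DMSO points, and SULT genes stand at 25.8 CPM with EA and 272 CPM with DMSO.

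Per kilobase of the main transcript, GSTO1 was the most abundant member in both groups, at 62.8 ± 7.75 CPM per kb with EA and 151 ± 2.93 with DMSO (SD, n = 3 each). In DMSO cells it was followed by SULT2A1 at 63.7 ± 2.78, UGT2B10 at 56.8 ± 4.49, SULT1A1 at 56.1 ± 3.54 and GSTK1 at 45.5 ± 0.573 CPM per kb, where libraries of UGT2B10 overlapped those of SULT2A1 and of SULT1A1. In EA cells the order after GSTO1 was UGT2B7 at 21.2 ± 0.619, GSTO2 at 12.7 ± 2.27, UGT2A3 at 10.7 ± 1.61, GSTK1 at 7.60 ± 0.964 and SULT1C4 at 5.45 ± 0.423 CPM per kb. GSTO2 and UGT2A3 did not differ beyond their spread. SULT2A1, the next most abundant member after GSTO1 with DMSO, stood at 1.44 ± 0.161 CPM per kb with EA. GSTO1, GSTK1 and UGT2B7 were among the first 6 in both groups.

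**Figure D3:**
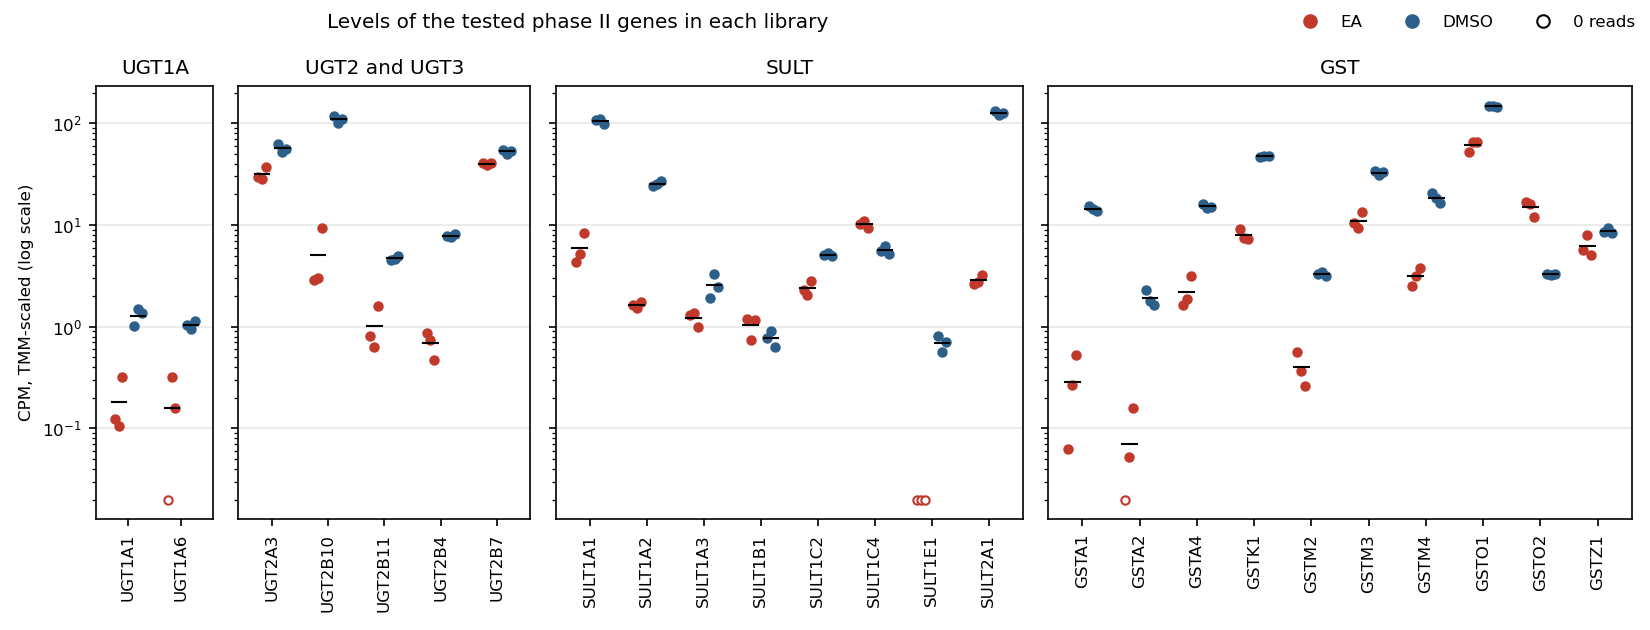
CPM in each library (vertical axis, log scale) of the 25 tested members by family, with EA points left of DMSO points, a black bar for each mean and open circles for 0 reads, drawn at the foot of the axis. SULT1B1 is the member whose groups overlap, and GSTO2 and SULT1C4 are those with all EA points above all DMSO points.

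The UGT1A genes lie on chromosome 2 and differ in their first exon while sharing the others. UGT1A1 (ENSG00000241635), the enzyme that conjugates bilirubin, stood at 0.124, 0.106 and 0.317 CPM in EA libraries, against 1.01, 1.48 and 1.38 CPM in DMSO libraries. It fell by 2.75 on the log2 scale (SE 0.42, adjusted p = 2.09e-05), and fell by 3.45 without EA replicate 3. UGT1A6 (ENSG00000167165), which conjugates small phenols, had 0, 0.318 and 0.159 CPM with EA, against 1.05, 0.957 and 1.14 CPM with DMSO. UGT1A6 fell by 2.62 on the log2 scale (SE 0.50, adjusted p = 0.000182), and fell by 3.54 without EA replicate 2. Both were near the lower limit of measurement in EA cells. They passed the filter through their DMSO libraries alone and so had to be lower with EA. Of the other 7 UGT1A genes, UGT1A3 had 8 reads in all with EA and 27 with DMSO, UGT1A10 had 0 and 3, UGT1A9 had 0 and 1, and UGT1A4, UGT1A5, UGT1A7 and UGT1A8 had none. In GENCODE 29, 57.3% (UGT1A6) to 72.8% (UGT1A3) of the 150-base windows of each main transcript are also found in a transcript of another gene, and the handling of such reads by the counter was not stated, so levels of single UGT1A genes are uncertain.

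UGT2 genes lie on chromosome 4 and act mainly on steroids, bile acids and drugs. All 5 tested genes fell, over a range from 1.32-fold to 21.2-fold, where 40.5% of all genes tested fell. Among them UGT2B4 passed the filter through its DMSO libraries alone, as not every EA library reached it, which favoured a lower value with EA. UGT2B10 (ENSG00000109181), which conjugates nicotine and other amines, stood at 2.86, 3.02 and 9.41 CPM in EA libraries, against 118, 101 and 110 CPM in DMSO libraries. EA replicate 3 was the highest EA library, and all EA values lay far below all DMSO values. UGT2B10 fell by 4.40 on the log2 scale (SE 0.43, adjusted p = 0.000342), and fell by 5.24 without EA replicate 3. UGT2B4 (ENSG00000156096), an enzyme for bile acids, had 0.871, 0.742 and 0.476 CPM with EA, against 7.82, 7.61 and 8.22 CPM with DMSO (log2 fold change -3.51, SE 0.21, adjusted p = 4.93e-10). UGT2B11 (ENSG00000213759), with few known substrates, had 0.809, 0.636 and 1.59 CPM with EA, against 4.52, 4.61 and 4.95 CPM with DMSO. Its log2 fold change was -2.20 (SE 0.26, adjusted p = 1.16e-06).

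The remaining tested members of the family fell by less than 2-fold. UGT2A3 (ENSG00000135220) had a log2 fold change of -0.85 (SE 0.10), at 31.7 ± 4.77 CPM with EA and 57.3 ± 5.02 CPM with DMSO (SD, n = 3 each). UGT2B7 (ENSG00000171234), the main enzyme for morphine, had one of -0.40 (SE 0.07), at 40.1 ± 1.17 CPM with EA and 53.0 ± 2.49 CPM with DMSO. UGT2B10 and UGT2B7 transcripts are 92.5% identical over 1851 aligned bases, yet none of their 150-base windows is found in another gene in GENCODE 29. Within a library the ratio of UGT2B10 to UGT2B7 reads was 0.0702, 0.0780 and 0.231 with EA, against 2.15, 2.01 and 2.04 with DMSO. In DMSO cells UGT2B10 thus had more reads than UGT2B7 in every library, and in EA cells fewer. Such a ratio does not depend on how libraries are scaled. Reads were few for the rest of the family, with 15 over the EA libraries and 2 over the DMSO libraries for UGT2B28, a ratio of 10.3 (95% counting interval 2.40 to 93.0). UGT2B17 had 0 reads with EA and 7 with DMSO, UGT2B15 had 0 and 4, UGT3A2 had 0 and 3, UGT3A1 had 0 and 1, and UGT2A1 and UGT2A2 had none.

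Promoter windows of UGT2B10, UGT2B11 and UGT2B7 are shown because these close relatives fell by different amounts. Each is the 250 bases before the RefSeq start on GRCh38.p14, in the direction of transcription, at chr4:68815744-68815993 (plus strand), chr4:69214749-69214998 (minus strand) and chr4:69096224-69096473 (plus strand). Capitals mark the letters TGACNNNGC on either strand, the core of the antioxidant response element.
UGT2B10: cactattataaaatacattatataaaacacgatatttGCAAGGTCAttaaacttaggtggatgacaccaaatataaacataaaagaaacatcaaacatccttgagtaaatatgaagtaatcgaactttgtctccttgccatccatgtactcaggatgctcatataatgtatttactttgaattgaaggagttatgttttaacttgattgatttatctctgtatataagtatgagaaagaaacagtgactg
UGT2B11: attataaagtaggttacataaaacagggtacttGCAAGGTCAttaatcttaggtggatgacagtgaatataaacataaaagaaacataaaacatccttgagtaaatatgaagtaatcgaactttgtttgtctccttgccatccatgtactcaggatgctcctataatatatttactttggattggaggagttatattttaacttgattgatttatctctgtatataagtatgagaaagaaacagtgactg
UGT2B7: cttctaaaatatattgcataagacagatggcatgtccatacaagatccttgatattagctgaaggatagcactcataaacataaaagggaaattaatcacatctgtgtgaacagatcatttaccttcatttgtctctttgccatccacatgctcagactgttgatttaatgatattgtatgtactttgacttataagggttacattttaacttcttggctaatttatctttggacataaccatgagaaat
The UGT2B10 and UGT2B11 windows were 93.1% identical over 246 aligned bases, while UGT2B10 and UGT2B7 were 72.6% identical over 230. The core stood in both UGT2B10 and UGT2B11, with its first base at -213 and -217 from the start, and was not among the letters of the UGT2B7 window. UGT2B10 and UGT2B11, the more similar pair, had log2 fold changes of -4.40 and -2.20, and UGT2B7 had one of -0.40. The same core is found in 10.9% of 35116 RefSeq promoter windows of this length. It is in those of 6 of the 22 tested members that have a window. Besides UGT2B10 and UGT2B11 these are GSTA4, UGT1A6, GSTO1 and SULT1C2, with log2 fold changes of -2.77, -2.62, -1.27 and -1.09. The GSTA1 and GSTA2 windows do not hold the core, and these genes had log2 fold changes of -5.58 and -4.58. The share of 10.9% counts windows and the 6 counts genes, among them UGT2B10 and UGT2B11 with nearly the same window. Whether the core is in excess here, and any part of it in the falls of these genes, was not tested. A match describes letters and is not a binding site.

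Sulfotransferases showed some of the deepest falls. SULT2A1 (ENSG00000105398, chromosome 19), which sulfates the adrenal steroid DHEA and bile acids, stood at 2.61, 2.76 and 3.22 CPM in EA libraries, against 132, 121 and 127 CPM in DMSO libraries. The 3 EA values lay close together and its fall was 44.0-fold (log2 fold change -5.46, SE 0.10, adjusted p = 1.97e-15). SULT1E1 (ENSG00000109193), the estrogen sulfotransferase, had 0 reads in every EA library and 52 over the DMSO libraries, so it was at least 12.6-fold lower with EA if 3 reads are taken as the limit for the whole EA group. SULT1E1 passed the filter through its DMSO libraries alone and so had to be lower. SULT1A1 (ENSG00000196502), the main phenol sulfotransferase of liver, had 4.36, 5.14 and 8.35 CPM with EA, against 107, 110 and 97.5 CPM with DMSO. It fell 17.5-fold (log2 fold change -4.13, SE 0.18, adjusted p = 3.69e-08). Its close relative SULT1A2 (ENSG00000197165) stood at 1.62, 1.54 and 1.74 CPM with EA, against 24.1, 25.4 and 26.9 CPM with DMSO (log2 fold change -3.96, SE 0.13, adjusted p = 5.96e-13). No group of either gene overlapped the other.

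Other cytosolic sulfotransferases changed by less. SULT1A3 (ENSG00000261052), which acts on dopamine, had 1.31, 1.38 and 1.00 CPM with EA, against 1.91, 3.31 and 2.44 CPM with DMSO (log2 fold change -1.05, SE 0.26, adjusted p = 0.00185). Its value is uncertain, because 96.5% of its 150-base windows are also found in another gene. The member that shares the most of them is SULT1A4, which had 0 reads with EA and 6 with DMSO. SULT1C2 (ENSG00000198203), at 2.30, 2.07 and 2.80 CPM with EA against 5.06, 5.26 and 4.95 CPM with DMSO, fell by 1.09 on the log2 scale (SE 0.17, adjusted p = 3.54e-05). Its relative SULT1C4 (ENSG00000198075), known mainly from fetal tissues, rose to 10.3, 10.9 and 9.30 CPM with EA, against 5.57, 6.18 and 5.19 CPM with DMSO. The log2 fold change of SULT1C4 was 0.85 (SE 0.13, adjusted p = 2.34e-05). Reads of SULT1C4 per read of SULT1C2 came to 4.46, 5.26 and 3.32 in EA libraries, against 1.10, 1.17 and 1.05 in DMSO libraries, so that SULT1C4 had the more reads of the pair in every library.

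SULT1B1 (ENSG00000173597), which sulfates thyroid hormone, was the tested member without a call. It stood at 1.18, 0.742 and 1.16 CPM with EA, against 0.779, 0.913 and 0.629 CPM with DMSO, and the groups overlapped. Its log2 fold change of 0.41 (SE 0.31, adjusted p = 0.233) leaves room for values from -0.20 to 1.01 (95% interval). SULT2B1 (ENSG00000088002), the cholesterol sulfotransferase, was under the filter at 0.560, 0.371 and 0.740 CPM in EA libraries, against 0.0779, 0.0870 and 0.0787 CPM in DMSO libraries. Without the filter it was called higher (log2 fold change 2.57, adjusted p = 0.000237). SULT1C3, SULT4A1 and SULT6B1 had no reads.

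All 3 tested class alpha GSTs, the main soluble GSTs of adult liver, fell, against 40.5% of all genes tested. GSTA1 and GSTA2 had 16 and 4 reads over the EA libraries. Both passed the filter through their DMSO libraries alone, which favoured a lower value with EA. GSTA1 (ENSG00000243955, chromosome 6) stood at 0.0622, 0.265 and 0.528 CPM in EA libraries, from 1, 5 and 10 reads, against 15.3, 14.4 and 13.7 CPM in DMSO libraries. GSTA1 fell by 5.58 on the log2 scale (SE 0.26, adjusted p = 3.73e-11), and fell by 6.38 without EA replicate 3. GSTA2 (ENSG00000244067) had 0, 0.0530 and 0.159 CPM with EA, against 2.30, 1.78 and 1.65 CPM with DMSO. GSTA2 fell by 4.58 on the log2 scale (SE 0.49, adjusted p = 4.57e-07), and fell by 5.83 without EA replicate 3. GSTA4 (ENSG00000170899), which removes the lipid peroxidation product 4-hydroxynonenal, had 1.62, 1.85 and 3.17 CPM with EA, against 16.2, 14.6 and 15.1 CPM with DMSO (log2 fold change -2.77, SE 0.18, adjusted p = 2.43e-09). EA replicate 3 was the highest EA library for all of these genes and remained below every DMSO library. GSTA3 had 1 read with EA and 0 with DMSO, and GSTA5 had none.

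Promoter windows of GSTA1 and GSTA2 are shown because these neighbours fell together and are nearly the same in sequence. They cover chr6:52803817-52804066 and chr6:52763476-52763725 on GRCh38.p14 (both on the minus strand), and capitals mark the bases at which the windows differ.
GSTA1: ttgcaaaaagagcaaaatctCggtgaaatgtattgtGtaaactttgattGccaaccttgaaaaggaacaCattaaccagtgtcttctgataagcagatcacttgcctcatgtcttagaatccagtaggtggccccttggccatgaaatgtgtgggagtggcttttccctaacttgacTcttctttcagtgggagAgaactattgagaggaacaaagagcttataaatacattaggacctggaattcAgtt
GSTA2: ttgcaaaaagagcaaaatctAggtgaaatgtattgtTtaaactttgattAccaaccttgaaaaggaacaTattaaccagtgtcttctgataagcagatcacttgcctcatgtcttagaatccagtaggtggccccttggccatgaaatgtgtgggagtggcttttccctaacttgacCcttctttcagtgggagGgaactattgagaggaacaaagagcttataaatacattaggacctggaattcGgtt
The windows were 97.2% identical over 250 bases, without gaps, and differed at 7 of them. The letters GCGTG on either strand are the core of the dioxin response element bound by the aryl hydrocarbon receptor. They were found in 32.2% of all windows and, counted by gene, in those of 5 of 22 tested members (GSTM3, GSTM4, GSTO2, GSTZ1 and UGT1A6). GSTA1 and GSTA2 transcripts are 95.4% identical over 1019 aligned bases, and 6.90% and 5.15% of their 150-base windows are shared with another gene, so some reads may have been given to the wrong copy.

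Class mu GSTs lie side by side on chromosome 1 and all 3 tested genes fell, against 40.5% of all genes tested. Among them GSTM2 passed the filter through its DMSO libraries alone, as not every EA library reached it, which favoured a lower value with EA. GSTM2 (ENSG00000213366) stood at 0.560, 0.371 and 0.264 CPM with EA, against 3.31, 3.44 and 3.15 CPM with DMSO. It fell by 3.06 on the log2 scale (SE 0.28, adjusted p = 6.85e-08). Of its 150-base windows 55.4% are also found in another gene, and GSTM1 is the member that shares the most of them. GSTM4 (ENSG00000168765) had 2.49, 3.18 and 3.75 CPM with EA, against 20.5, 18.6 and 16.6 CPM with DMSO (log2 fold change -2.55, SE 0.15, adjusted p = 3.46e-10). GSTM3 (ENSG00000134202) had 10.5, 9.33 and 13.4 CPM with EA, against 33.8, 31.3 and 32.9 CPM with DMSO (log2 fold change -1.56, SE 0.12, adjusted p = 6.48e-09). The groups of these genes did not overlap. GSTM1 had 0 reads with EA and 1 with DMSO, and GSTM5 had 0 and 2.

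Class omega genes GSTO1 and GSTO2, both on chromosome 10, changed in opposite directions. Their enzymes reduce dehydroascorbate and act as thiol transferases. GSTO2 (ENSG00000065621) rose to 16.9, 16.2 and 11.9 CPM in EA libraries, against 3.31, 3.22 and 3.26 CPM in DMSO libraries. GSTO2 was the member with the largest increase among those tested (4.58-fold, log2 fold change 2.20, SE 0.15, adjusted p = 2.54e-09). GSTO1 (ENSG00000148834) fell to 52.3, 65.2 and 65.6 CPM in EA libraries, against 149, 149 and 144 CPM in DMSO libraries. Its log2 fold change was -1.27 (SE 0.08, adjusted p = 1.31e-09). GSTO2 reads per GSTO1 read came to 0.322, 0.249 and 0.182 with EA, against 0.0222, 0.0217 and 0.0227 with DMSO. None of the 150-base windows of either transcript is found in another gene.

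Among the remaining classes, GSTK1 (ENSG00000197448, chromosome 7), a class kappa enzyme of mitochondria and peroxisomes, stood at 9.09, 7.47 and 7.24 CPM with EA, against 47.1, 48.2 and 47.2 CPM with DMSO. The libraries of each group were close and GSTK1 fell 6.01-fold (log2 fold change -2.59, SE 0.10, adjusted p = 2.72e-12). GSTZ1 (ENSG00000100577), which acts in tyrosine breakdown, was at 6.28 ± 1.52 CPM with EA and 8.68 ± 0.546 CPM with DMSO (SD, n = 3 each). Its log2 fold change of -0.46 (SE 0.16, adjusted p = 0.0143) was no longer called without DMSO replicate 2 (adjusted p = 0.0563). GSTP1, the class pi enzyme found in many tumours, had 0 reads with EA and 2 with DMSO, and GSTT2B had 5 and 10.

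**Figure D4:**
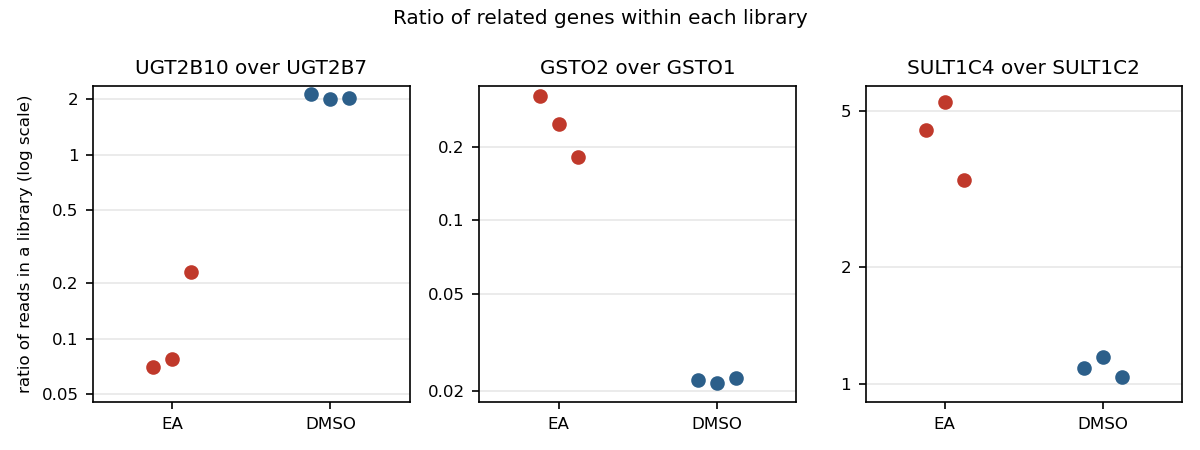
Ratio of reads of related genes within each library (vertical axes, log scale) for UGT2B10 over UGT2B7, GSTO2 over GSTO1 and SULT1C4 over SULT1C2, with 1 point per library and EA left of DMSO. The EA ratios lie below the DMSO ratios for the first pair and above them for the others, with no overlap.

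These 3 ratios, picked after values were seen, differed between EA and DMSO by -4.26, 3.46 and 1.95 on the log2 scale in the order UGT2B10 over UGT2B7, GSTO2 over GSTO1 and SULT1C4 over SULT1C2. An exact two-sided permutation test gave p = 0.1 for each (adjusted over the 3, 0.1), which is the smallest that 3 against 3 libraries allow. 

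Genes that supply, extend, reverse or regulate conjugation were followed in a list of 50, of which 46 could be tested. With EA 14 rose, 29 fell and 3 were not called, against 40.5% higher and 40.5% lower over all genes, and their median log2 fold change was -0.53. NR1H4, among those that fell, passed the filter through its DMSO libraries alone and so had to be lower with EA. Genes of cofactor supply went both ways. GCLC, the catalytic subunit of the limiting enzyme of glutathione synthesis, rose by 2.77 on the log2 scale (SE 0.07), to 1137 ± 43.7 CPM with EA, against 167 ± 4.52 CPM with DMSO (SD, n = 3 each). Its modifier subunit GCLM rose by 1.17 (SE 0.10), while GGT1, which breaks down extracellular glutathione, had a log2 fold change of -1.58 (SE 0.11). Named after their values were seen, glutathione reductase GSR rose by 0.69 (SE 0.07) and glutathione synthetase GSS had a log2 fold change of -0.22 (SE 0.08). PAPSS1, which makes the sulfate donor PAPS, fell by 1.33 on the log2 scale (SE 0.09), to 56.1 ± 7.14 CPM with EA against 142 ± 6.94 CPM with DMSO. SLC35B2, which carries PAPS into the Golgi, fell by 1.01 (SE 0.07). Likewise outside the naming rule, PAPSS2 rose by 1.28 (SE 0.30), at 1.79 ± 0.512 CPM with EA and 0.724 ± 0.151 CPM with DMSO, and UGDH, which makes the glucuronic acid donor, fell by 0.40 (SE 0.08). In this sub-list 4 of 14 rose, 8 fell and 2 were not called.

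Of 8 tested enzymes of other conjugation and detoxification reactions 6 fell and 2 rose. Over all genes tested 40.5% fell and 40.5% rose, and these shares also stand beside the counts that follow. The soluble epoxide hydrolase EPHX2 had a log2 fold change of -3.66 (SE 0.17), the membrane-bound GSTs MGST1 and MGST2 had -2.22 (SE 0.09) and -2.21 (SE 0.08), and the microsomal epoxide hydrolase EPHX1 had -1.11 (SE 0.09). All 3 genes listed for removal of conjugates fell, among them steroid sulfatase STS at -1.62 (SE 0.12) and SUMF1, which activates sulfatases, at -1.68 (SE 0.11). Of 8 genes of export 4 rose and 4 fell. ABCC6 had a log2 fold change of -1.73 (SE 0.08), ABCG2 of -1.63 (SE 0.09) and ABCC3 of -1.43 (SE 0.16). ABCC3 exports glucuronides across the basolateral membrane and ABCG2 exports sulfates, among others. Named after their values were seen, ABCC1 rose by 0.89 (SE 0.07), ABCC4 by 0.73 (SE 0.21) and ABCC5 by 0.68 (SE 0.09). ABCC2, likewise, had a log2 fold change of -0.71 (SE 0.06), at 469 CPM with EA and 767 CPM with DMSO.

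Of the 13 tested regulators known to act on these families, 8 fell, 4 rose and RXRA was not called, against 40.5% lower and 40.5% higher over all genes. NR1H4, the bile acid receptor FXR, had 11 reads over the EA libraries and 1739 over the DMSO libraries. It passed the filter through its DMSO libraries alone, so its place among the 8 that fell was set by the filter. HNF4A had a log2 fold change of -0.56 (SE 0.07), the pregnane X receptor NR1I2 of -0.52 (SE 0.09) and the constitutive androstane receptor NR1I3 of -0.77 (SE 0.29). RORA, a nuclear receptor reported to act on SULT2A1, rose by 3.57 (SE 0.07). NFE2L2, which encodes NRF2, the factor that acts on antioxidant response elements, rose by 0.55 (SE 0.10), and AHR, the receptor for dioxins, rose by 0.19 (SE 0.06). The part of these regulators in the levels of the enzymes was not tested.

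**Figure D5:**
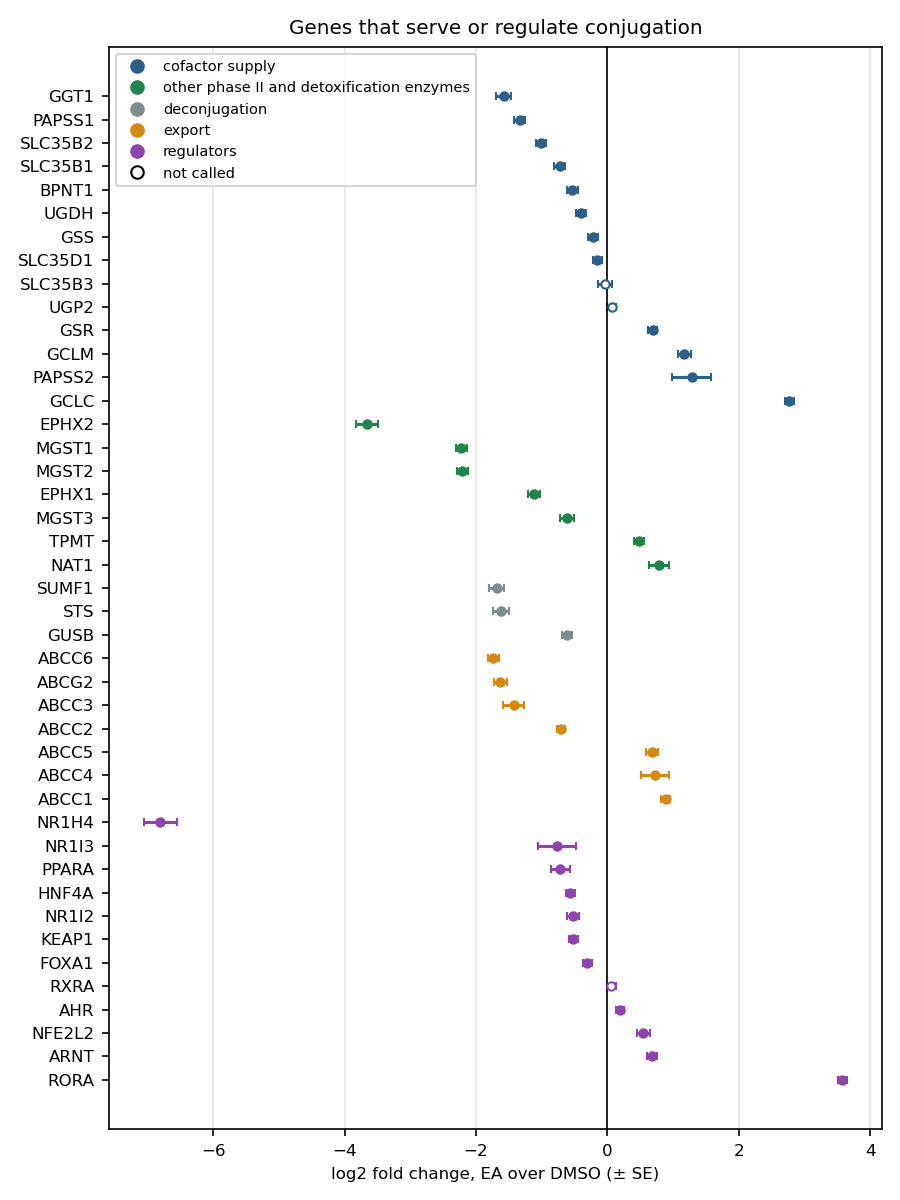
Log2 fold change (EA over DMSO, horizontal axis, ± SE) of 43 of the 46 tested genes that serve or regulate conjugation, coloured by sub-list, with open points for the 3 not called. GCLC at 2.77 and RORA at 3.57 lie farthest to the right, and EPHX2 at -3.66 and NR1H4 farthest to the left. NR1H4 passed the filter through its DMSO libraries alone.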

How the data were processed

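The values deposited by the authors are read counts per gene, whole and without normalisation, in 1 column for each library. Each column was matched to its sample by name, and 0 columns were left unused. The submitters' processing notes name HTSeq 0.6.1, HISAT (no version), cutadapt 1.9.1 and bcl2fastq 2.17.1.14, with hg19 as the build. Not given in the sources used here are the gene annotation, strand setting and counting mode, so reads of a gene and its antisense or overlapping partner cannot be separated.

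Genes were filtered with filterByExpr (a CPM of 0.474 in 3 libraries), scaled by TMM and compared with edgeR 4.0.16 in R 4.3.3 (quasi-likelihood fit, robust) over the whole table, with Benjamini-Hochberg adjustment. The SE is the log2 fold change over the square root of F. The test was also run on simulated counts in which few genes changed and all had the same scatter. In these data 81.0% of genes were called, so that run cannot show how the test behaves here. Members and lists were chosen with earlier results of these data known. The rule for named genes gave every member, with values in each library for called members of at least 2-fold and 1 CPM and for those not called, and up to 5 called genes of at least 2-fold per supporting sub-list beside 6 fixed regulators. Values of 3 of these supporting genes are not reported here. Main transcripts, lengths and chromosomes came from GENCODE 29 and promoters from RefSeq, both on GRCh38, another build than the counts. Promoter windows were matched by symbol for 42 of 50 members. Alternatives used DESeq2 1.42.0 and limma 3.58.1 (voom), 3 other scalings, other filters and thresholds, a replicate block and each library left out.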

Additional observations from a re-analysis of the deposited data

How the results depend on the processing

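Of 397 values of the 25 tested members under 16 alternatives, 394 kept their direction and their side of the threshold, 3 lost the call and 0 reversed. The 3 were GSTZ1 at an adjusted p of 0.01, against a minimum fold of 1.2 (adjusted p = 0.0579) and without DMSO replicate 2 (0.0563). The 397 values include those of the 7 members that passed the filter through DMSO libraries alone. The filter favoured a fall in these members, so their kept direction says little. Members called lower numbered 22, and 21 to 22 with a library left out, 20 with a filter of 1 CPM in 3 libraries and 23 with no filter, where UGT2B17 joined. Members called higher numbered 2, and 2 to 3 with a library left out, where SULT2B1 could be tested. SULT2B1 then passed the filter through EA libraries alone, which favoured a higher value with EA, so its call there says little. With no filter 4 were higher, SULT2B1 and UGT2B28 among them, and 32015 genes were tested. Supporting genes called higher numbered 12 to 14 and those lower 26 to 29 with a library left out. With the replicate number as a block 22 members were lower and 2 higher, as without it, and 28 supporting genes were lower. Deviations of libraries with the same number did not go together (r of -0.0839, 0.0273 and -0.0154 across genes), nor did every library correlate best with its own number, so the numbers were not taken to pair the samples. RLE, upper-quartile and unscaled libraries moved the fold changes of all genes by a median of 0.034, 0.0087 and 0.0096 on the log2 scale, and the fit with no filter by -0.13. The ratios of related genes kept their sign with each library left out. Depth limits GSTA1, GSTA2, GSTM2, UGT1A1, UGT1A6 and UGT2B4 in EA cells, where they had 4 to 37 reads over the 3 libraries.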

Other observations

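Of 27 non-coding genes of the same families, 2 had enough reads to be tested and both were called lower with EA, against 40.5% of all genes. Only their DMSO libraries all reached the filter, so these 2 calls do not speak for the other non-coding genes. UGT2B27P had 0.436, 0.583 and 2.59 CPM in EA libraries, against 11.9, 10.9 and 12.6 CPM in DMSO libraries (log2 fold change -3.25, SE 0.47, adjusted p = 0.000642 in edgeR's quasi-likelihood test). Its EA replicate 3 stood above the other EA libraries, as that of UGT2B10 did. UGT2B24P had 7 reads over the EA libraries and 48 over the DMSO libraries (log2 fold change -2.26, SE 0.75, adjusted p = 0.0155). GSTT2, which is classed as a polymorphic pseudogene, had 13 reads with EA and 29 with DMSO, and was not tested.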
